A study of Mus musculus with 2 samples.

Results

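The genes of the proteasome were examined in a map of CHD2 binding in ES-E14 cells, which are male embryonic stem cells of mouse strain 129/Ola. They are the protein-coding genes whose symbols begin with Psma, Psmb, Psmc, Psmd, Psme, Psmf or Psmg, and 51 of the 21530 protein-coding genes with a known strand fit that rule. CHD2 is a chromatin remodeller of the chromodomain helicase family. Its binding was measured by chromatin immunoprecipitation and sequencing (ChIP-seq) with an antibody to CHD2, in 1 group of 2 biological replicates that carry no stated treatment or genotype change. The labels give both replicates the same biosample entry, so their spread may be technical. With 1 group there is no contrast between conditions, and no test over samples could be made. Every gene was scored by the strongest peak summit within 1 kb of its outer 5′ end, which is called a promoter peak below. The scores come from the optimal list, which the authors derived from both replicates, and from each replicate's own list, which is the strongest part of its 300000 relaxed peaks, cut to the length of the optimal list. Signal is the peak caller's own value, so it was compared within a list only. Read depth is unknown. ChIP-seq of a cell population cannot tell the share of cells with CHD2 at a site from the amount bound per cell.

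The proteasome is the barrel-shaped protease that degrades proteins tagged with ubiquitin. Its core particle stacks outer rings of alpha subunits (Psma genes) on inner rings of beta subunits (Psmb genes), of which Psmb5, Psmb6 and Psmb7 encode the catalytic ones. A regulatory particle caps the core. Its base holds the ATPases that unfold substrates (Psmc genes), the scaffolds Psmd1 and Psmd2 and the ubiquitin receptor Psmd4, and its lid holds the deubiquitinase Psmd14. In immune cells Psmb8, Psmb9 and Psmb10 replace the catalytic subunits, Psmb11 does so in the thymus, and Psma8 is used in the testis. By these roles the members were 14 core genes, 9 base genes, 8 lid genes, 8 immune or testis genes (with Psme1 and Psme2, the interferon-induced activator, and Psme2b, a copy of Psme2) and 10 genes for assembly factors and regulators. The symbols of the other 2 members, Psmc3ip and Psme3ip1, fit the rule, but they name partners of a subunit. Psmc3ip acts in meiotic recombination.

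A promoter peak of the optimal list was found at 14 of the 51 members (27.5%, exact 95% interval 15.9 to 41.7), beside 14.1% of all protein-coding genes. Without Psmc3ip and Psme3ip1 it was found at 13 of 49 (26.5%, 14.9 to 41.1). In replicate 1's own list 12 members had a peak (23.5%, beside 14.5% of genes), and in replicate 2's own list 14 members did (27.5%, beside 14.2%). In all 3 lists there were 9 members (17.6%, beside 10.1% of genes), and 19 were in at least 1 of them (37.3%, beside 18.9%). Intervals cover the counting of genes alone, and genes are not replicates of the experiment. The 9 members found in all 3 lists were Psmb2, Psmd5, Psmb3, Psmd3, Psmd4, Psmb9, Psmc5, Psmb8 and Psma5. They are also the 9 members with the highest optimal signals.

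Among the strongest bound members, Psmd5 and Psmb3 differed in the sequence before their starts. The sequences here are the 250 bases before the RefSeq start, on GRCm38.p6, 5′ to 3′ along the gene, and are shown to set peaks of falling signal beside promoters with no peak. Capitals mark exact matches, on either strand, to any of 14 short motifs that were searched. Psmd5, with an optimal signal of 351, lies on the minus strand, and the stretch is chr2:34870963-34871212. Psmb3, with 155, lies on the plus strand (chr11:97703184-97703433). Psmd4, with 89.5, lies on the minus strand (chr3:95042615-95042864).
Psmd5: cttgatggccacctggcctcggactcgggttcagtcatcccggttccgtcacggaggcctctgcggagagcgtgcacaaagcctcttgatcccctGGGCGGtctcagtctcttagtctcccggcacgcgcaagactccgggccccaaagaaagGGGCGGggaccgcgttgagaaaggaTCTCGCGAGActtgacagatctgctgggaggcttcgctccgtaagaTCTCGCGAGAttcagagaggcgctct
Psmb3: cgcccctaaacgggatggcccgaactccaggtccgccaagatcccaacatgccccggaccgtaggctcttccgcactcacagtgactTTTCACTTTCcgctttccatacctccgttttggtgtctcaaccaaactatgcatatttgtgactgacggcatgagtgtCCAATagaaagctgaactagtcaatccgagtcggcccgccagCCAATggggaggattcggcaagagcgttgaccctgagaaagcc
Psmd4: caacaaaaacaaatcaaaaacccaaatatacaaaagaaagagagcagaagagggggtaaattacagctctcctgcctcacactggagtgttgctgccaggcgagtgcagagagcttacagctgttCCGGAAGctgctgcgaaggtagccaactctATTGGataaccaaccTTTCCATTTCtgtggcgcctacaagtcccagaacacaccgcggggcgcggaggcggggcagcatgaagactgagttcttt

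The Psmd5 stretch holds a 10-base palindrome with CGCG at its centre at 2 places, the capitals nearest its end, beginning 72 and 26 bases before the start, and the CHD2 summit lay between them, 53 bases before it. No other of the 47 RefSeq promoters of members held this palindrome, which occurs in 0.673% of the 21255 promoters of protein-coding genes. The 47 include none of 8 members, Psmb2 and Psmd3 among them, whose promoters could not be searched. Over all genes, 130 of the 143 promoters with the palindrome belonged to a gene with an optimal promoter peak (90.9%), beside 14.9% of all promoters of protein-coding genes. In the Psmb3 stretch a CCAAT box began 85 bases before the start and the summit lay 80 bases before it. Psmb3 holds a further CCAAT box at 43 bases before the start. At Psmd4 the summit lay 20 bases inside the gene, past the ETS core CCGGAAG, the CCAAT box and the interferon response element of the stretch. A match is a description of the letters and no evidence of a bound factor.

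Promoters with no peak in any of the 3 lists held some of the same short motifs. They are shown for Psma1 of the core (chr7:114276117-114276366, minus strand), Psmc1 of the base (chr12:100109952-100110201, plus strand) and the immune Psmb10 (chr8:105938393-105938642, minus strand).
Psma1: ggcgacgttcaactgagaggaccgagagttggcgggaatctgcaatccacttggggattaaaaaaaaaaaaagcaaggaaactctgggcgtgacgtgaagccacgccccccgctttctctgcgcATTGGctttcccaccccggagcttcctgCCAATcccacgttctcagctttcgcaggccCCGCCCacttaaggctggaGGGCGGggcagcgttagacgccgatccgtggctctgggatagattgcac
Psmc1: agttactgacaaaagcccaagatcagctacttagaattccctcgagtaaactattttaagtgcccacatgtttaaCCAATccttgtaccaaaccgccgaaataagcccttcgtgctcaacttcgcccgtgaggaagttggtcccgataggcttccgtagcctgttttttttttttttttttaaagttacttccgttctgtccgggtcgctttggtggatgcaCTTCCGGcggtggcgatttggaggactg
Psmb10: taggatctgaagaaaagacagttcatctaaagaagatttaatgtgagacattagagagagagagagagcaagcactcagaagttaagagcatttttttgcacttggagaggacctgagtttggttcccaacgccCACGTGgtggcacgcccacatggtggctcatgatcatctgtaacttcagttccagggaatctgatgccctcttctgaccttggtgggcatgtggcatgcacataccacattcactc

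The Psma1 stretch has 2 CCAAT boxes and 2 GC boxes, the Psmc1 stretch 1 CCAAT box and 1 ETS core, and the Psmb10 stretch 1 E-box (CACGTG). Psma1 had a ratio of observed to expected CpG of 0.96, Psmc1 of 0.97 and Psmb10 of 0.19. Psmd5 (0.86), Psmb3 (0.80) and Psmd4 (0.51), with a peak, lay below Psma1 and Psmc1 and above Psmb10, which carried no called peak.

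**Figure D1:**
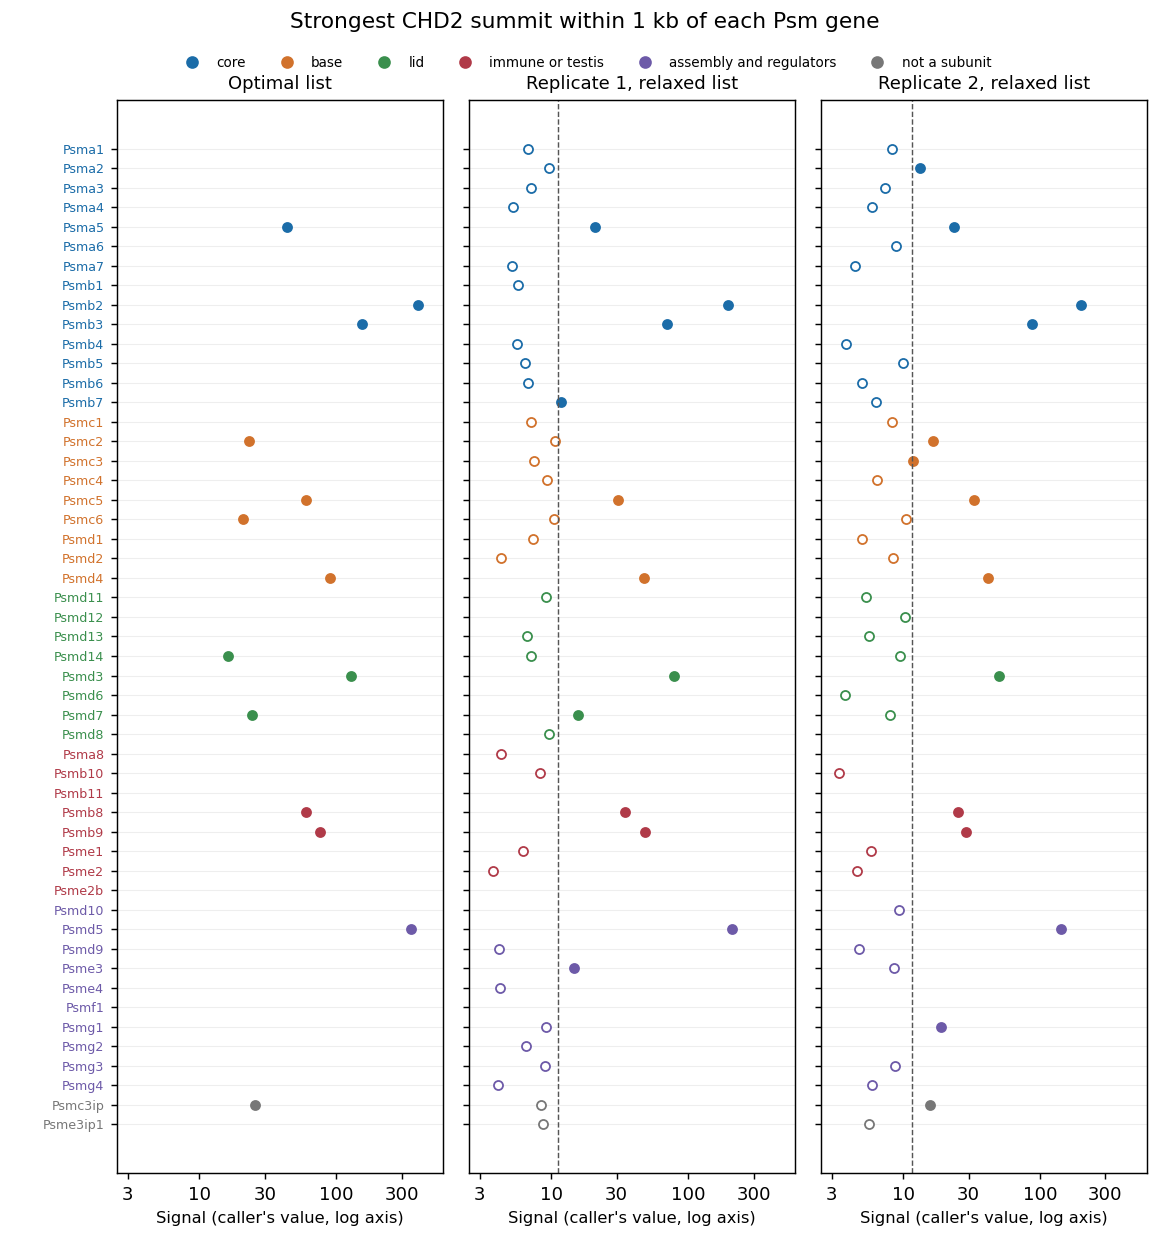
Strongest signal of a summit within 1 kb of the 5′ end of each of the 51 members (rows, coloured by role) in the optimal list and the relaxed list of each replicate, on log axes. Filled points are peaks of the optimal list or of a replicate's own list, open points are weaker relaxed peaks, the dashed lines are the signals of the weakest peak of each own list (11.1 and 11.6), and a row without a point has no summit; Psmb2 and Psmd5 lie far to the right in all 3 panels.

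Of the 14 core genes 3 had an optimal promoter peak, Psmb2, Psmb3 and Psma5 (21.4%, exact 95% interval 4.66 to 50.8). Psmb2, a non-catalytic beta subunit, had a signal of 392 in the optimal list (rank 14, chr4:126677460-126677738), 195 in replicate 1 (rank 29) and 198 in replicate 2 (rank 13). It was the highest member in the optimal list and in replicate 2, and second to Psmd5 in replicate 1. Psmb3, also a non-catalytic beta subunit, had 155 (rank 403, chr11:97703267-97703453), with 70.0 in replicate 1 (rank 502) and 87.3 in replicate 2 (rank 312). Psma5, the sole alpha subunit gene with an optimal peak at its outer end, had 43.6 (rank 2387, chr3:108256918-108257277), with 20.8 in replicate 1 (rank 2772) and 23.6 in replicate 2 (rank 2315). A further weak peak at Psma5 had a signal of 7.6. All 3 genes ranked in the same order in each list.

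The catalytic core genes carried no optimal peak. Psmb7 was within the strongest peaks of replicate 1 alone, with a signal of 11.7 (rank 7451), and had 6.36 in replicate 2 (rank 34870). Psmb5 had 6.42 in replicate 1 (rank 47859) and 10 in replicate 2 (rank 11297), and Psmb6 had 6.79 (rank 38128) and 5.04 (rank 68339). The alpha subunit gene Psma2 was within the strongest peaks of replicate 2 alone, with 13.2 (rank 6386) against rank 11792 in replicate 1. Its start lies 205 bp from that of Mrpl32, a gene of the mitochondrial ribosome, and the summit in replicate 2 was 68 bp from the Psma2 start. The other core genes without a promoter peak in the 3 lists were Psma1, Psma3, Psma4, Psma6, Psma7, Psmb1 and Psmb4.

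The base had a peak at 4 of 9 genes in the optimal list (44.4%, 13.7 to 78.8), at 2 of 9 in replicate 1 and at 4 of 9 in replicate 2. Psmd4, a ubiquitin receptor, had 89.5 (rank 918, chr3:95042552-95042696), with 47.4 in replicate 1 (rank 886) and 41.7 in replicate 2 (rank 1068). The ATPase gene Psmc5 had 59.9 (rank 1554, chr11:106255747-106256106), with 30.8 (rank 1535) and 32.8 (rank 1455). The Psmc5 start lies 101 bp from that of Ftsj3, a gene of ribosome assembly, and the optimal summit was nearer to Ftsj3 (157 bp) than to Psmc5 (258 bp). A weaker peak of signal 27 had its summit 57 bp before Psmc5, between the starts of the 2 genes and again nearer to that of Ftsj3. These 2 base genes had like ranks in both replicates.

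The other peaks at base genes were weak. Psmc2 had 22.9 (rank 5869, chr5:21785092-21785451), with the summit 3 bp before its start and 8 bp from that of Dnajc2, a ribosome-associated chaperone gene. In replicate 1 the strongest summit at Psmc2 had 10.6 (rank 9279), just outside its own list, and in replicate 2 it had 16.5 (rank 4156). Psmc6 had 20.9 (rank 6477, chr14:45329704-45330063), yet it was outside the strongest peaks of replicate 1 (10.4, rank 9792) and of replicate 2 (10.4, rank 10397). Psmc3 was within those of replicate 2 alone (11.7, rank 8052, against rank 26038 in replicate 1). Psmc1, Psmc4, Psmd1 and Psmd2 had none in the 3 lists.

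The lid had an optimal peak at 3 of 8 genes (37.5%, 8.52 to 75.5), of which Psmd3 alone recurred in both replicates' own lists. Psmd3 had 128 (rank 548, chr11:98682191-98682394), with 78.9 in replicate 1 (rank 420) and 50.5 in replicate 2 (rank 801). Psmd7, the partner of the deubiquitinase, had 24.2 (rank 5456, chr8:107588498-107588857), with 15.7 in replicate 1 (rank 4345) and 8.05 in replicate 2 (rank 18862). Psmd14, the deubiquitinase itself, had the lowest optimal signal of the members, 16.3 (rank 7348, chr2:61711668-61712027), and ranked 31262 and 12701 in the replicates. Its peak was the sole of the 14 members' not matched by a conservative peak within 1 kb. At the base gene Psmc2 the conservative peak was a weaker one (signal 10.3), with its summit 223 bp inside the gene. Psmd6, Psmd8, Psmd11, Psmd12 and Psmd13 had none in the 3 lists. The strongest relaxed signals among members without a peak included lid genes, 9.66 at Psmd8 (rank 11729) and 9.12 at Psmd11 (rank 13791) in replicate 1, with 9.38 at the base gene Psmc4 (rank 12700) between them, and 10.3 at Psmd12 (rank 10604) in replicate 2.

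Among the immune or testis genes the bound ones were neighbours. An optimal peak was found at Psmb9 and Psmb8, 2 of 8 genes (25%, 3.19 to 65.1), whose starts lie 10865 bp apart on chromosome 17. Psmb9 had 76.0 (rank 1153, chr17:34187309-34187668), with 48.4 in replicate 1 (rank 859) and 28.9 in replicate 2 (rank 1708). Its start lies 226 bp from that of Tap1, which encodes a peptide transporter of antigen presentation, and the summit was nearer to Tap1 (67 bp) than to Psmb9 (159 bp). Psmb8 had 59.6 (rank 1567, chr17:34197487-34197846), with 34.4 (rank 1327) and 25.3 (rank 2067), and its summit lay 528 bp before the outer 5′ end.

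The other immune and testis genes had no promoter peak in the 3 lists. At Psmb10, the third immunoproteasome subunit gene, the strongest summit had 8.32 in replicate 1 (rank 18256) and 3.42 in replicate 2 (rank 193931). Psme1 had 6.25 (rank 53190) and 5.81 (rank 45061), and Psme2 3.75 (rank 283743) and 4.6 (rank 88689). The testis gene Psma8 had 4.32 in replicate 1 and no summit in replicate 2. The thymus gene Psmb11 and Psme2b had no relaxed summit within 1 kb in either replicate. Psme2b is a copy of Psme2, and the treatment of reads that match both is not stated in the sources.

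Among the assembly factors and regulators Psmd5 alone had an optimal peak (1 of 10, 10%, 0.253 to 44.5). Psmd5 is a chaperone of base assembly, and its peak (signal 351, rank 37, chr2:34870854-34871214) had 209 in replicate 1 (rank 15) and 142 in replicate 2 (rank 84). Psmg1, a chaperone of core assembly, was within the strongest peaks of replicate 2 alone (18.8, rank 3329, against rank 13708 in replicate 1). Psme3, the nuclear activator, was within those of replicate 1 alone (14.6, rank 4970, against rank 15900 in replicate 2). Psmg1 (26.6), Psme3 (22.3) and Psma2 (19.0) had a conservative peak although none was in the optimal list, which makes 16 of 51 members in the conservative list (31.4%, beside 13.6% of genes). The base chaperones Psmd9 and Psmd10, the core chaperones Psmg2, Psmg3 and Psmg4, the activator Psme4 and Psmf1, which encodes the proteasome-binding protein PI31, had none in the 3 lists. In replicate 2, 9.35 at Psmd10 (rank 13167) was among the strongest signals of members without a peak. Of the members that are no subunit, Psmc3ip had 25.4 (rank 5115, chr11:101095268-101095627), with 8.38 in replicate 1 (rank 17769) and 15.8 in replicate 2 (rank 4500), and Psme3ip1 had none in the 3 lists.

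**Figure D2:**
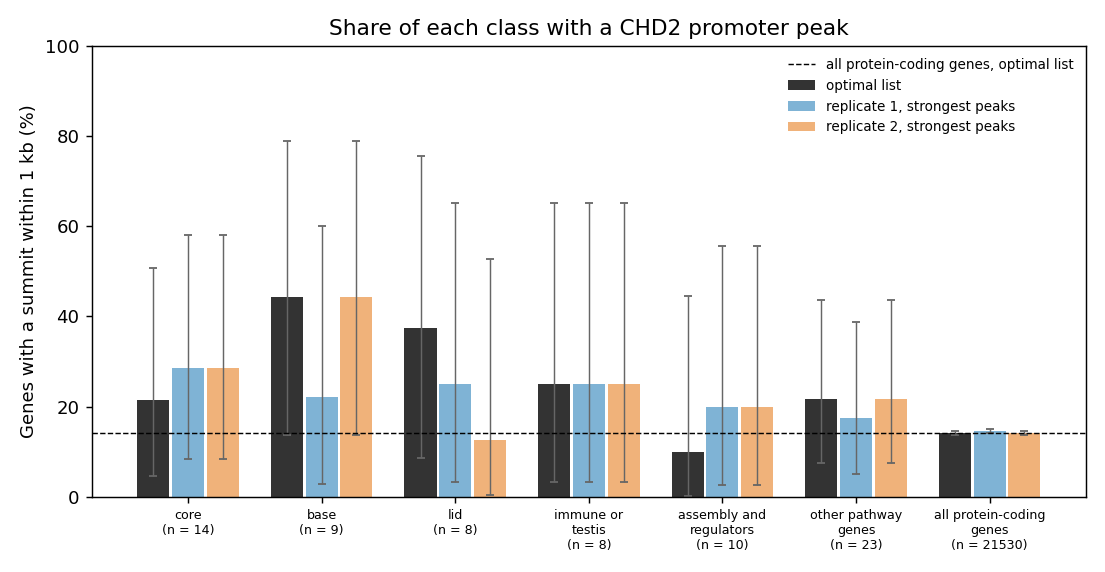
Share of genes with a summit within 1 kb of the 5′ end (%), by role, for the optimal list and each replicate's own list; whiskers are exact 95% intervals of the count and the dashed line is the share of all protein-coding genes, 14.1%. The intervals of the 5 classes overlap one another in each list, and the order of the classes differs between the lists.

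The classes could not be told apart by these counts. The base had the highest share in the optimal list (44.4%) and in replicate 2 (44.4%) but a share of 22.2% in replicate 1, where the core had 28.6%. The lid had 37.5% in the optimal list, 25.0% in replicate 1 and 12.5% in replicate 2. The immune or testis share was 25.0% in each list. Every class interval also contains the share of all genes. With 8 to 14 genes per class the intervals are wide and cover counting alone. They cannot show whether a class differs from that background, and no class is called different from it.

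At 4 members the outer 5′ end of the gene misses a CHD2 peak farther inside. Psma6 had a peak of signal 108 (rank 697, chr12:55399398-55399570) whose summit lay 15254 bp inside the gene, near a further RefSeq start 14603 bp from the outer end. It recurred in replicate 1 (52.6, rank 783) and replicate 2 (54.5, rank 708). A weaker peak beside it had 46.4 (rank 2181), and its summit, 14615 bp inside the gene, was the closer of the 2 to the further RefSeq start. It ranked 2290 in replicate 1 and 2637 in replicate 2. Psmg2 had a peak of signal 120 (rank 604, chr18:67642868-67643057) with its summit 1385 bp inside the gene, 55.8 in replicate 1 (rank 720) and 66.4 in replicate 2 (rank 510). This was the peak nearest to the window among those outside it, whereas the farthest inside was that of Psmb8 at 528 bp. Psmf1 had a peak of 22.1 (rank 6079) near a RefSeq start 2889 bp inside, and Psma3 a peak of 20.5 (rank 6556) near a start 5340 bp inside. Psmf1 ranked 4584 in replicate 1 and 26182 in replicate 2, and Psma3 ranked 5655 and 22870. With every RefSeq start counted, an alternative chosen after the data were seen, 17 of 51 members had a promoter peak (33.3%, beside 15.4% of genes). The added genes were Psma3, Psma6 and Psmf1, so that core genes with a peak numbered 5 of 14.

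The mm9 list of 4613 peaks, set against GENCODE M1 starts, gave a peak at 11 of the 49 members it annotates (beside 11.5% of 18220 genes). The 9 members found in the 3 mm10 lists were among them, with Psmc2 and Psma6. By that annotation the summit lay outside the gene at 7 of the 11, in an untranslated exon at Psmd4, Psma5 and Psmb9, and in an intron at Psma6. Psmd5 had a signal of 972 in that list (rank 15) and Psmb2 894 (rank 21), the reverse of their order in the optimal list. At Psmb8 the mm9 summit lay 57 bp before a GENCODE M1 start, whereas the optimal summit lay 528 bp before the outer RefSeq end.

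**Figure D3:**
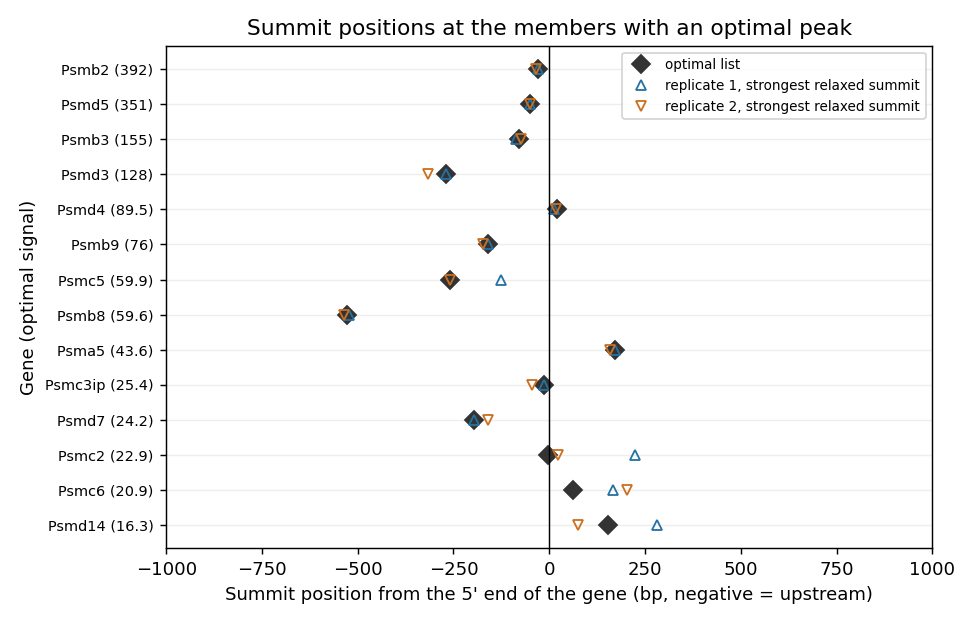
Position of the strongest summit from the outer 5′ end (bp, negative is upstream) at the 14 members with an optimal peak, ordered by optimal signal (in brackets); diamonds are the optimal list and triangles are the strongest relaxed summits of each replicate. The optimal summits run from -528 bp at Psmb8 to 172 bp at Psma5, and the summits of the replicates lie farthest apart at Psmd14, Psmc2 and Psmc5.

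Summit positions at members were close to those at all genes with an optimal promoter peak. Of the 14 optimal summits 10 were upstream (71.4%), beside 65.3% at all 3036 genes with an optimal promoter peak. Their median distance from the 5′ end was 117 bp, beside 104 bp, and 7 lay within 100 bp (50%, beside 48.8%). At Psmd5 the summit position was -50 bp in the optimal list and in both replicates. At Psmb2 it was -30, -30 and -34 bp. At Psmc5 the strongest summit was at -126 bp in replicate 1 and at -259 bp in replicate 2, and in both it lay beyond the Ftsj3 start. A further protein-coding start lay within 1 kb of the summit at 4 of the 14 members (28.6%, beside 28.5%), namely Psmc2, Psmb3, Psmc5 and Psmb9, and was nearer than the member's own at Psmc5 and Psmb9.

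**Figure D4:**
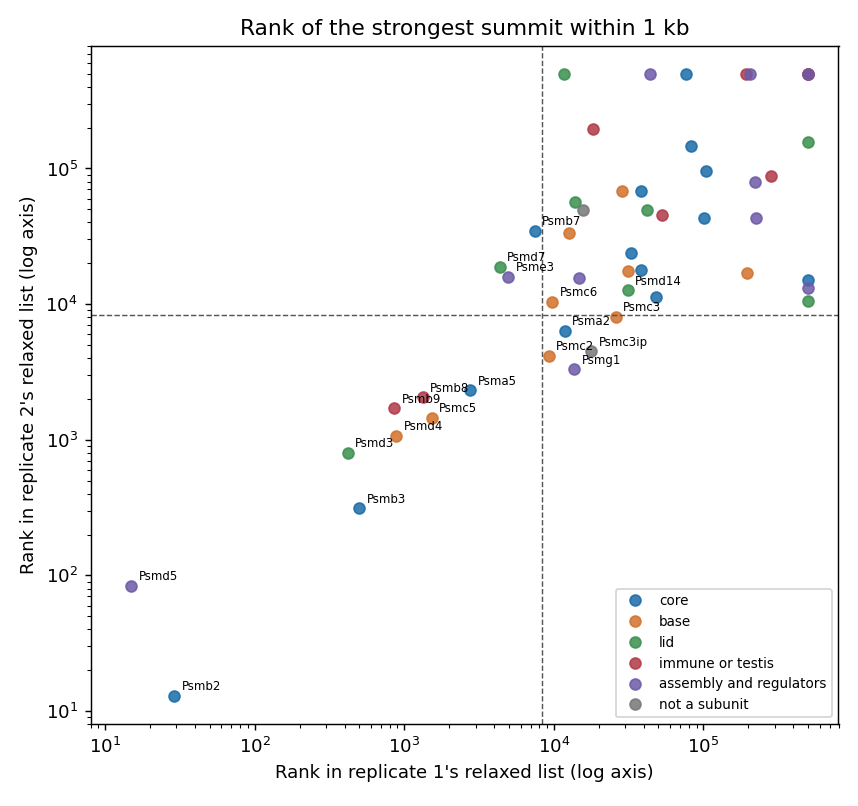
Rank of the strongest summit within 1 kb of each member in the relaxed lists of replicate 1 (horizontal) and replicate 2 (vertical), on log axes where a low rank is a strong peak; dashed lines mark the last rank of an own list and points on the outer edge at the top or right have no relaxed summit in that replicate. The 9 members inside both lines run from Psmb2 and Psmd5 to Psma5, and those beyond either line scatter widely.

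The replicates were compared over the members. Spearman's rho for the signal in replicate 1 against replicate 2 was 0.921 among the 14 members with an optimal peak, 0.438 among the 25 others with a relaxed summit in both replicates, and 0.77 among these 39 together. These values run across genes that share the libraries and describe the members only. The optimal list was derived from both replicates, so the first value is conditioned on that choice. It still held peaks at Psmc6 and Psmd14, which were outside the own lists of both replicates. The largest rank differences were at Psme2, Psmg4 and Psmd2, with ranks of 283743 and 88689, 224857 and 42922, and 194555 and 17048 in replicates 1 and 2. All of these ranks lie outside the own lists. A relaxed summit of any strength lay within 1 kb of 44 members in replicate 1 (86.3%, beside 50.4% of genes) and of 43 in replicate 2 (84.3%, beside 59.6%). In neither replicate was there one at Psmf1, Psme2b and Psmb11.

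Promoters of members with and without a peak overlapped in CpG content. Each RefSeq promoter was classed here by a summit within 1 kb of its own start, inner starts included, a grouping added after the data were seen. The median ratio of observed to expected CpG was 0.76 over 14 member promoters with an optimal peak (range 0.51 to 1.0) and 0.71 over 30 with none in the 3 lists (range 0.09 to 1.12). With promoters classed by the outer end of their gene, the medians were 0.81 over 12 and 0.70 over 32 promoters. The median was 0.80 over all promoters of genes with an optimal peak and 0.57 over all promoters of protein-coding genes. By class the medians were 0.84 for the base, 0.79 for the core, 0.73 for the lid and for the assembly factors and regulators, and 0.49 for the immune or testis genes. The part of promoter CpG in the members' counts was not tested.

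The ETS core CCGGAAG was found mainly before base and lid genes. It occurred in 10 of their 15 RefSeq promoters, from 250 bases before to 50 after the start, and in 4 of 9 promoters of assembly factors and regulators. It occurred in 1 of 12 core promoters, at the inner start of Psma6, and in none of 8 immune or testis promoters. The share was 36.2% over the 47 member promoters, 11.6% over all promoters of protein-coding genes, 21.6% over promoters of genes with an optimal peak, and 8.86% over all 32841 promoters of the table. Among members, classed by their own starts, it was 35.7% (5 of 14) with an optimal peak and 33.3% (10 of 30) with none in the 3 lists. Classed by the outer end of the gene, as the 21.6% is, it was 41.7% (5 of 12) and 31.2% (10 of 32). Of the base and lid genes, Psmc1, Psmd2, Psmd6, Psmd11, Psmd12 and Psmd13 hold it without a called peak.

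The remaining motifs were searched in the same 300 bases. By the same classes the CCAAT box was in 7 of 14 member promoters with an optimal peak and 7 of 30 with none, beside 38.2% of promoters of protein-coding genes and 54.1% of promoters of genes with an optimal peak. The GC box GGGCGG was in 5 of 14 and 19 of 30, beside 46.2% and 62.5%. The 54.1% and 62.5% class promoters by the outer end of their gene. Classed so, member promoters with and without a peak had the CCAAT box in 6 of 12 and 8 of 32. The GC box was then in 5 of 12 and 19 of 32. The NRF1 palindrome was in 7 of 47 member promoters (14.9%, beside 6.38%), Psmd14 and Psmc5 among them. The antioxidant response element TGACNNNGC, the kind of site used by the proteasome gene activator Nfe2l1, was in 6 of 47 (12.8%, beside 13.0%), and of the members with an optimal peak it was before Psmc6 alone. The interferon response element was in 5 of 47, at Psmb3, Psmd4, Psmd9, Psmg4 and Psme1 (10.6%, beside 3.35%). AAGATGGC was in 3, CACGTG in 5, TATAAA in 4, TTCNNNGAA in 3, the ZNF143 element in 2, the NF-kappaB element in 1 and TGACGTCA in 0 of the 47. Over promoters of protein-coding genes the shares were 3.05%, 7.84%, 12.6%, 7.69%, 1.46%, 1.44% and 2.23% in that order. Shares over all 32841 promoters were 2.75%, 7.15%, 13.6%, 8.3%, 1.01%, 1.47% and 1.79%. For the CCAAT box, the GC box, the NRF1 palindrome, TGACNNNGC, the interferon response element and the CGCG palindrome they were 37.4%, 35.7%, 4.6%, 12.4%, 3.44% and 0.466%.

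Other genes that serve the proteasome were occupied at 5 of 23 (21.7%, exact 95% interval 7.46 to 43.7, beside 14.1% of all genes). Vcp, the segregase that extracts ubiquitinated proteins, had 97.2 (rank 818), with 49.5 in replicate 1 and 47.8 in replicate 2. Nfe2l1, a transcription factor known to raise proteasome genes when the proteasome is inhibited, had 86.0 (rank 980), with 53.3 and 30.8. Zfand2a had 32.9 (rank 3549), with 8.06 in replicate 1 (rank 20236) and 20.0 in replicate 2 (rank 3007). The shuttle gene Ubqln2 had 18.2 (rank 7111), with 6.26 (rank 52997) and 11.3 (rank 8628), outside both own lists. In all 3 lists there were 3 of the 23 genes (13.0%, beside 10.1% of all genes). Ubqln4 was within the strongest peaks of both replicates (17.7 and 11.8) but had no optimal peak. The subunit genes Adrm1 and Sem1 and the assembly factor gene Pomp, which the name rule leaves out, had no peak in the 3 lists, nor had Nfe2l2.

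The identity of the cells could not be checked from these lists, since peaks of 1 factor do not measure expression. A promoter peak of the optimal list lay at Sox2 alone among 7 stem cell markers and at none of 4 fibroblast markers, beside 14.1% of all genes. In replicate 1's own list it was again Sox2 alone (rank 3721). In replicate 2's own list it was Nanog alone (rank 5024), and Sox2 ranked 13950.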

How the data were processed

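CHD2 ChIP-seq peaks of 2 biological replicates in ES-E14 cells were analysed, as 1 group. The signal value per peak was deposited by the authors, is a value of their peak caller, and its normalization is not stated. Per the deposited descriptions, the optimal list and the conservative list (7530) come from the irreproducible discovery rate procedure, which keeps peaks whose rank recurs, and used the relaxed lists of both replicates and their pooled list (300000 peaks each). The mm9 list came from both replicates' alignments. The sources used here name no caller, aligner or filter, and the control was not analysed here. A list capped at a fixed length sets which weak promoters count. Depth is unknown, and intervals cover counting error only.

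RefSeq genes of GRCm38.p6 were used on mm10. The strand came from the RefSeq promoter table for 17492 protein-coding genes and from GENCODE M1 for 4038, together 98.3% of 21900. A gene's score was the highest signal of a summit within 1 kb of its outer 5′ end. Of the members, 43 were in the promoter table, and Psmb1, Psmb2, Psmb7, Psma8, Psmc3, Psmd3, Psmd7 and Psmg2 were not. RefSeq is the source of all sequences. Motifs were matched exactly on both strands. CCAAT, for example, is also ATTGG, and overlapping motifs were each counted. The motifs are the CCAAT box, the GC box GGGCGG, the ETS core CCGGAAG, the E-box CACGTG, the cAMP response element TGACGTCA, the YY1 core AAGATGGC, the antioxidant response element TGACNNNGC, the TATA box TATAAA, the STAT element TTCNNNGAA and, by name, the NRF1 palindrome, the CGCG palindrome, the ZNF143 element, the interferon response element and the NF-kappaB element. Of 24 further pathway genes 23 were matched by symbol or synonym, and Paaf1 was not analysed here.

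The members and lists were chosen with earlier results of these data known. No test was made, and counts stand beside the same count over all genes. Named with values were the members with a peak in the optimal list or either replicate's own list, the 3 strongest others per replicate, the 3 largest rank differences, those nearest the window and rank limits, and up to 5 pathway genes, of which 1 is not reported here. Promoters were printed for the 3 strongest members with a promoter entry, which Psmb2 and Psmd3 lack. Among members without a peak, the first by symbol was taken from the core, the base or lid, and the immune or testis genes. These too were taken among those with a promoter entry, which Psma8 lacks. Psmd4 was added after its values were seen, as were the catalytic core genes, Psme1, Psme2 and Psma8, the members with a peak farther inside the gene and the pathway genes without an optimal peak. Of the motif matches, the genes were named after they were seen. Alternatives were 10 planned and 2 added settings. Scoring and motif matching were tested on simulated data. Python 3.11.15, pandas 2.3.3, NumPy 2.4.6, SciPy 1.17.1 and Matplotlib 3.10.9 were used.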

Additional observations from a re-analysis of the deposited data

How the results depend on the processing

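The count of members with a promoter peak was 14 and ran from 9 to 17 over the alternatives. It moved by over 1.5 times with the 4141 strongest optimal peaks alone, where it was 9 of 51 (beside 10.1% of genes). Leaving out a replicate gave 12 to 14. The small classes moved more. Assembly factors and regulators, 1 of 10 at first, had 2 when either replicate was left out, 3 with the conservative list, 3 with the strongest pooled peaks, 2 with a window of 2.5 kb and 2 with any annotated start. The base, at 4, had 2 to 4 when a replicate was left out (2 without replicate 2) and 2 with the strongest 4141 peaks. The lid, at 3, had 1 to 2 when a replicate was left out (1 without replicate 1), 1 with the strongest 4141 peaks and 1 on mm9. The core rose from 3 to 5 with any annotated start, because more starts were searched. Immune or testis genes fell from 2 to 1 with a window of 500 bp, which Psmb8 leaves, and to 1 when a peak counts for the nearest gene alone, which gives the Psmb9 peak to Tap1. For the other moves the cause was not tested. In all, 75 of 90 counts stayed within 1.5 times of the first, but the 90 include those of other pathway genes and of all genes. The 15 that moved were all counts of members or of their classes. Of 14 motif counts in the 150 bases nearest the start, 10 stayed within 1.5 times. Psmb2 led Psmd5 in the optimal list and in replicate 2, and Psmd5 led Psmb2 in replicate 1 and on mm9. The base had a higher share than the core in the optimal list and a lower share in replicate 1. No paired analysis was possible because there is 1 group. Below the optimal signal of Psma5 (43.6) no member was within the own lists of both replicates.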
